A study of Homo sapiens with 6 samples.

Results

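Gene expression was compared between control cells of K562 and control cells of Jurkat, with 1 array for each line, so the comparison rested on 2 of the 6 arrays of a series on the zinc finger transcription factor ZFX. K562 is an established chronic myeloid leukemia line with erythroid features and carries the BCR-ABL1 fusion, and Jurkat is an established T cell acute lymphoblastic leukemia line. The 2 arrays were chosen by their labels alone. Each was hybridised with RNA pooled in equal amounts from 3 replicates, and each lineage was represented by 1 cell line, so a difference between lineages and a difference between these particular lines cannot be told apart. The other 4 arrays held RNA of the same lines infected with a lentiviral short hairpin against ZFX, labelled 381 or 1012, and sorted for fluorescence. The protocol names a control hairpin vector (shNC), whereas the sample labels call the control arrays normal cells, and this was not settled. The silenced arrays were used here to check whether a line difference repeated: hairpin 381 in K562 against hairpin 381 in Jurkat, and the same for 1012, form 2 further pairs that share no array with the control pair or with each other.

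Erythroid cells are built by a set of transcription factors around GATA1, which bind DNA together with TAL1, LMO2 and LDB1 and switch on globins, heme synthesis and the proteins of the red cell membrane. T cells instead depend on Notch, TCF and ETS family factors, BCL11B and GATA3, which establish the T cell receptor with its CD3 chains and the kinases LCK and ZAP70 that carry its signal. K562 cells are known for embryonic and fetal globins, and Jurkat cells are the classic line for the study of T cell receptor signalling.

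The deposited values are linear MAS5 signals, 1 per probe set and array, and each array had a 2% trimmed mean of about 500. Differences are given as log2(signal + 17) in K562 minus Jurkat, so that a positive value means a higher level in K562. The added 17 keeps very dim values from dominating and makes folds of genes that are dim in 1 line smaller than the ratio of the signals. A gene was tested when a probe set of its own exceeded the median over all probe sets in its mean over the 6 arrays, equal to a signal of 54.4, which left 11785 genes, each represented by its brightest such probe set. Of these, 236 of the 678 genes at least 4-fold higher in K562 in all 3 pairs, and 243 of the 897 higher in Jurkat, had a control signal under 17 in the lower line, so that their folds depend on the pseudocount. The lower line's control signal was under the filter level of 54.4 for 472 of the 678 and 564 of the 897, so these genes were tested through the line where they are high, and genes dim in both lines were dropped. Counts and medians over tested members of a list are therefore descriptions of those members. The ratio of 3' to 5' GAPDH probe sets was between 1.15 and 1.36 on the 6 arrays, and that of ACTB was 11.1, 8.61 and 7.54 on the K562 and 9.27, 9.99 and 8.43 on the Jurkat arrays (control, 381, 1012). The part of RNA quality in the results was not tested. The median signal of the 24 poly-A spike-in probe sets was 192 to 345 on the K562 arrays and 349 to 499 on the Jurkat arrays. It therefore differed between the lines, and its part in the results was not tested. ZFX itself had a signal of 719 in control K562 and 498 in control Jurkat cells, and was lower on both silenced arrays of each line than on its control.

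The 6 markers of the lines differed in the direction of the labels. Signals are given in the order control, hairpin 381 and hairpin 1012. HBZ, the embryonic alpha-like globin, had signals of 24148, 11085 and 9263 in K562 and 4.82, 4.57 and 14.4 in Jurkat cells. HBE1, the embryonic beta-like globin, had 30384, 30115 and 28326 against 32.6, 24.6 and 40.3. RHAG, the Rh-associated membrane glycoprotein of red cells, had 18805, 17720 and 19310 against 17.7, 11.8 and 18.8. In each case the lowest K562 array lay far above the highest Jurkat array. The reverse held for the T lineage markers. LCK, the Src family kinase of the T cell receptor, had signals of 32.7, 5.40 and 5.28 in K562 and 15328, 13272 and 15946 in Jurkat cells. The chromatin organiser SATB1 had 7.48, 14.9 and 9.06 against 14183, 11440 and 10828, and the chemokine receptor CXCR4 21.8, 17.4 and 27.0 against 19155, 19162 and 19883. In RNA of a whole culture, fewer expressing cells and less RNA per cell cannot be told apart. On the silenced arrays SATB1 had the smallest of the 6 differences, a log2 value of -8.60 ± 0.22 (SE, n = 2 arrays per line), and LCK the largest, -9.35 ± 0.22. The markers were chosen with these values known, so no test is given.

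The sequences around a few start sites are shown because lineage factors of both kinds bind short motifs near such sites. RHAG and the blood transcription factors GATA1 and LYL1 stand for the K562 side. LCK, the T cell receptor chain gene CD3D and the recombinase gene RAG1 stand for the Jurkat side. Each window runs from 250 bases before to 50 bases after a RefSeq start site on GRCh38.p14, 5' to 3' on the strand of the gene. Capitals mark short motifs, each searched on both strands of every window. They are the box bound by KLF factors, CCACCC, and the letters read by GATA factors, AGATAA. The others are a core read by ETS factors, CGGAAG, and one read by RUNX factors, TGTGGT. The windows are RHAG at chr6:49636790-49637089, minus strand, GATA1 at chrX:48786340-48786639, plus strand, LYL1 at chr19:13102809-13103108, minus strand, LCK at chr1:32251015-32251314, plus strand, CD3D at chr11:118342656-118342955, minus strand, and RAG1 at chr11:36510103-36510402, plus strand.
RHAG: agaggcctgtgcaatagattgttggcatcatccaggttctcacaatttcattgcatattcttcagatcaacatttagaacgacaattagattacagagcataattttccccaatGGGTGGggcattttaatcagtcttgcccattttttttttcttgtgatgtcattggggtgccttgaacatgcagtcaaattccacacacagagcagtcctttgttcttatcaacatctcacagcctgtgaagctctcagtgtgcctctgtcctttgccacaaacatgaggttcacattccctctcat
GATA1: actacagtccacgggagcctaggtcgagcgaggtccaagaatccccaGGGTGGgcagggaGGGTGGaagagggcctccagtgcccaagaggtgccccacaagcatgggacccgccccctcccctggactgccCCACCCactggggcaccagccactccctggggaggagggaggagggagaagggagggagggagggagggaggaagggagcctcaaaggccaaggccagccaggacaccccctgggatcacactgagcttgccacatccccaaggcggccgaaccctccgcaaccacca
LYL1: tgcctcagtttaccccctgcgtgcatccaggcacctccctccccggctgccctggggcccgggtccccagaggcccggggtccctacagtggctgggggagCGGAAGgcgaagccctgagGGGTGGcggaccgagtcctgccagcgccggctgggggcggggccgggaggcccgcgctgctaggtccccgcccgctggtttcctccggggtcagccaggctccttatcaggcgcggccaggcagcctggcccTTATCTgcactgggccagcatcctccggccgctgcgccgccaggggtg
LCK: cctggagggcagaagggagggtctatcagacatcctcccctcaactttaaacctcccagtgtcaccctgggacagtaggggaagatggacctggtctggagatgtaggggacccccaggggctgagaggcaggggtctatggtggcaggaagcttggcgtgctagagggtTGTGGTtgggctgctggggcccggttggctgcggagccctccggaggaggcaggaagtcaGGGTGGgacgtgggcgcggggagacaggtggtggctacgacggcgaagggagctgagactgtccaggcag
CD3D: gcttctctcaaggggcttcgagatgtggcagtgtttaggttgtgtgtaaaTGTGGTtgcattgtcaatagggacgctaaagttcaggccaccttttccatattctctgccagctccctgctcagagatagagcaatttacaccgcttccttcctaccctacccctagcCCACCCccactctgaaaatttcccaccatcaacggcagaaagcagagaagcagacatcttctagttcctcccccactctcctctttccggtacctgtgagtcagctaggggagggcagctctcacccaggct
RAG1: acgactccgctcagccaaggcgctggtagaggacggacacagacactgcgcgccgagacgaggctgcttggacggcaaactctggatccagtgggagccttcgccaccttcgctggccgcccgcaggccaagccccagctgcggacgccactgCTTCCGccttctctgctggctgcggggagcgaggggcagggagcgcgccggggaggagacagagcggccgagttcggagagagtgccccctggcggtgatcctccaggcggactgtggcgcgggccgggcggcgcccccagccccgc

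In these letters RHAG had a CACCC match with its first base at position -136 from the start, and GATA1 had 3 at positions -203, -190 and -118. LYL1 had a CACCC match at -130, an ETS match at -149 and the only GATA match of the 6 windows, at position 3. LCK had a RUNX match at -80 and CD3D one at -200, and both also held a CACCC match, at -20 and -82. RAG1 had an ETS match at -97. LCK has a second RefSeq start further downstream, with its window at chr1:32273871-32274170, plus strand, which held a CACCC match at -36. The CACCC letters were thus present on both sides. Over all 13986 windows of 9626 tested genes, AGATAA was present in 5.72%, CCACCC in 38.1%, CGGAAG in 30.4% and TGTGGT in 10.3%. For genes at least 4-fold higher in K562 in all 3 pairs (835 windows) the shares were 9.58%, 38.9%, 18.4% and 10.9%, and for those higher in Jurkat (1169 windows) 7.96%, 36.5%, 16.5% and 13.1%. The CGGAAG letters were thus less common on both sides than among all windows. The median GC content was 62.3% and 63.0% on these sides and 64.7% over all windows, and its part in the shares was not tested. A match is a string of letters, not a bound site.

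The lines differed across much of the transcriptome, and nearly all large differences repeated. On the control arrays 829 of 11785 genes were at least 4-fold higher in K562 (7.03%) and 1149 at least 4-fold higher in Jurkat (9.75%). At 2-fold these counts were 1745 (14.8%) and 2365 (20.1%). Of the 829 genes, 825 had the same direction in both hairpin pairs and 678 were again at least 4-fold higher in both. Of the 1149 genes higher in Jurkat, 1146 kept the direction and 897 the size. Thus 5.75% of all genes were at least 4-fold higher in K562 in all 3 pairs and 7.61% in Jurkat. These shares, and those on the control arrays, are the ones to set beside the list counts below. All 526 genes at least 8-fold higher in control K562 cells (4.46%), and all 665 at least 8-fold higher in control Jurkat cells (5.64%), had the same direction in both hairpin pairs.

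**Figure D1:**
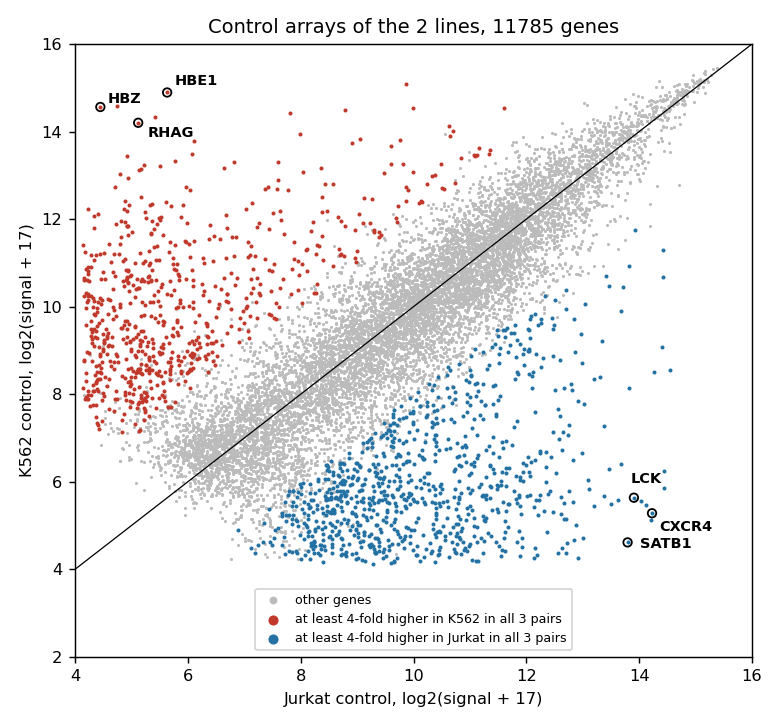
Each point is a gene, with log2(signal + 17) of the Jurkat control array on the horizontal and of the K562 control array on the vertical axis, for 11785 genes. Red and blue points are the 678 and 897 genes at least 4-fold higher in K562 or Jurkat in all 3 pairs, the line marks equal values, and the 6 markers lie in the upper left and lower right corners.

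With 1 control array per line the control difference has no replicate check of its own. On the 4 silenced arrays, 2 per line, limma called 2636 genes higher in K562 (22.4%) and 3112 higher in Jurkat (26.4%) at an adjusted p below 0.05, with the difference between the hairpins as the error. These calls included 816 of the 829 and 1132 of the 1149 genes. Computed over genes, which do not replicate one another, the control pair difference correlated with the hairpin 381 pair with Pearson's r = 0.958 and with the hairpin 1012 pair with r = 0.953. Array values correlated with r between 0.682 and 0.702 across the lines and between 0.979 and 0.985 within a line. Among genes at least 4-fold apart in all 3 pairs and measured by several probe sets, all probe sets had the same direction on the control arrays in 254 of 264 genes higher in K562 and 378 of 406 higher in Jurkat.

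**Figure D2:**
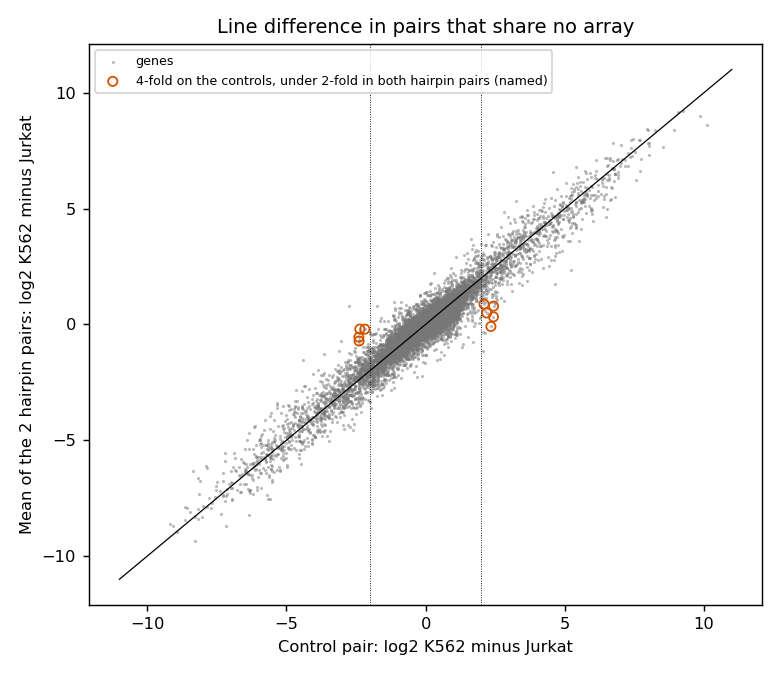
The log2 difference between K562 and Jurkat on the control arrays (horizontal) is plotted against the mean of the same difference in both hairpin pairs (vertical), 1 point per gene. Points follow the line of equality, dotted lines mark 4-fold on the control arrays, and open circles are the 9 named genes that were at least 4-fold apart on the control arrays but under 2-fold in both hairpin pairs.

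Globin and erythroid genes set K562 apart. In the globin list, 6 of 11 genes were tested, 5 were at least 4-fold higher in control K562 cells and none in Jurkat, and the median log2 difference was 4.85 against -0.04 over all genes. The list was not limited to embryonic forms. The adult delta globin HBD had signals of 2386, 6519.8 and 3448 in K562 and 5.73, 3.91 and 3.46 in Jurkat cells, and the adult beta globin HBB 625, 1799 and 969 against 64.1, 59.6 and 87.5. Both were highest with hairpin 381 among the K562 arrays, while HBZ was highest in the K562 control. Whether the HBB probe set also picked up related globins was not tested. The level of HBB is therefore uncertain, and its pattern may not be separate from that of HBD. The alpha globin chaperone AHSP was lower in range, with 584, 394 and 416 against 108, 88.8 and 13.0, and the theta globin HBQ1 differed least, with log2 values of 1.10, 2.11 and 1.53. With a pseudocount of 68 the value of AHSP was 1.89, below 4-fold. HBM was too dim to be tested, with at most 38.3 on any array, and the remaining 4 genes share their probe sets with another gene and were not analysed.

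Erythroid transcription factors followed, with 10 of the 18 tested of 20 listed at least 4-fold higher in K562 in all 3 pairs and 1 in Jurkat. The median log2 difference of the tested members was 2.99 on the control arrays. LMO2, the bridging protein of the GATA1 and TAL1 complex, had signals of 5382, 3546 and 3464 in K562 and 31.7, 54.4 and 66.5 in Jurkat cells. GATA1 had 709.9, 735 and 613 against 36.4, 55.9 and 10.8, and GATA2, its partner in progenitors, 4035, 4504 and 3368 against 185, 184 and 118. The groups did not overlap in these genes, which are among the 10 picked out by the 4-fold rule in all 3 pairs. NFE2, which drives globin and platelet genes, the repressor GFI1B and the TAL1 relative LYL1 had control differences of 6.37, 5.80 and 5.41. KLF1, the erythroid Kruppel-like factor that binds CACCC boxes, had 1597, 1509.7 and 1229 against 82.3, 64.7 and 23.7 (log2 4.02 on the control arrays, 4.58 ± 0.35 SE on the silenced arrays). HEMGN, SOX6 and KLF3 were also at least 4-fold higher in K562 in all 3 pairs, with control values of 4.37, 4.07 and 2.21. With a pseudocount of 4.25 another of the 4 probe sets of SOX6 was the brightest, and the gene lay at 0.91. As a mean over probe sets KLF3 lay at 1.71, and GATA2, of whose 3 probe sets 2 were higher in K562, at 2.44.

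Members of the same list went the other way or were shared. BCL11A, the repressor of fetal globin genes, had signals of 2.26, 19.9 and 12.6 in K562 and 7740.1, 6546 and 9093 in Jurkat cells, a control difference of -8.65 with all 4 probe sets in the same direction. TAL1 was bright in both lines, at 4801, 4046 and 3176 against 8848, 10359 and 7047, and higher in Jurkat, with log2 differences of -0.88, -1.35 and -1.15. Its 3 K562 values all lay below its 3 Jurkat values, although TAL1 is a core erythroid factor as well as a T cell leukemia oncogene. MYB, a progenitor factor of both lineages, was also higher in Jurkat, at -0.90, -0.76 and -1.14. Thus LMO2, GATA1 and LYL1 separated the lines, whereas TAL1 did not do so in the direction of the erythroid line. Of the cofactors, LDB1 differed by 1.22 and ZFPM1 (FOG1) by 0.79 on the control arrays.

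Heme synthesis genes had a median difference near 0. Of 12 tested of 15 listed genes, 3 were at least 4-fold higher in control K562 cells and none in Jurkat, and the median was -0.07. The shares over all genes were 7.03% and 9.75%. UROD, the uroporphyrinogen decarboxylase, had signals of 23664, 23744 and 23571 in K562 and 3076, 3301 and 2364 in Jurkat cells. The biliverdin reductase BLVRB, which acts on heme breakdown products, had 13670, 13284 and 13660 against 461, 433 and 424. These were the 2 members past 4-fold in all 3 pairs. The mitochondrial iron importer SLC25A37 (mitoferrin) was past 4-fold on the control arrays only, with 3041, 2138 and 2205 against 697, 1062 and 1306: it was highest in the K562 control and lowest in the Jurkat control. It lay at 1.45 as a mean over probe sets. PPOX and CPOX were also higher in K562, by 1.997, 1.94 and 1.70 and by 1.22, 0.90 and 1.14. As a mean over its 2 probe sets PPOX lay at 0.97. On the opposite side, ALAD differed by -1.72, -1.48 and -0.90 and the transporter ABCB10 by -1.08, -1.86 and -1.42, both higher in Jurkat. ALAD rested on 1 of its 2 probe sets, and as a mean over both its control value was -0.52. ALAS2, the erythroid form of the first enzyme, was too dim to be tested, with at most 65.2 on any array, while ALAS1, the form of all cells, differed by -0.34.

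Iron handling genes differed at 2 points. TFR2, the second transferrin receptor, had signals of 1789, 1616 and 1474 in K562 and 13.7, 11.5 and 54.4 in Jurkat cells, and the ferrireductase STEAP3 743, 683 and 763 against 1.18, 31.7 and 16.2. The other 8 of 10 tested genes (of 12 listed) differed by less than 2-fold on the control arrays. Among all genes 14.8% were at least 2-fold higher in K562 and 20.1% in Jurkat on these arrays, and 7.03% and 9.75% at least 4-fold. The transferrin receptor TFRC, which all dividing cells use, was bright in both lines, with 32913, 32454 and 26868 against 21667, 31842 and 24990, and its ranges overlapped. The ferritin light chain FTL differed by 0.79, 0.99 and 0.91. The control value of STEAP3 was 3.55 with a pseudocount of 68, and that of TFR2 2.99 as a mean over probe sets.

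Red cell membrane and blood group genes were mostly higher in K562, with 8 of 15 tested genes at least 4-fold higher in all 3 pairs and none in Jurkat. Of the 28 listed, 7 were too dim to be tested and 6 were not analysed. Beside RHAG, the Kell-associated membrane protein XK had signals of 3325, 3016 and 3899.7 in K562 and 15.2, 9.97 and 20.9 in Jurkat cells. The cytoskeletal adducin ADD2, the tropomodulin TMOD1, the spectrin SPTB, the ankyrin ANK1, the Kell antigen KEL and the RhD antigen RHD had control differences of 5.59, 3.98, 2.89, 2.83, 2.80 and 2.32. As means over probe sets ADD2 lay at 2.79 and ANK1 at 4.71, and RHD lay at 1.82 with a pseudocount of 68. RHD also shares sequence with a near-identical neighbour, so its level is uncertain. The anion exchanger SLC4A1 and the membrane protein EPB42 were too dim to be tested, with at most 152 and 45.3 on any array, whereas the cytoskeletal linker EPB41 was bright in both lines and differed by 0.52. CD47, a broadly expressed self marker, went the other way, with 6944, 7773 and 8212 in K562 against 20412, 21705 and 22497 in Jurkat cells and all 7 probe sets in that direction.

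Megakaryocyte genes were split. Of 9 tested of 19 listed, 4 were at least 4-fold higher in K562 in all 3 pairs and 1 in Jurkat, against 5.75% and 7.61% of all genes. The transcription factor MEF2C had signals of 5126, 7782 and 8078 in K562 and 14.2, 26.6 and 21.1 in Jurkat cells. The collagen receptor GP6, the platelet tubulin TUBB1 and the secretory GTPase RAB27B had control differences of 3.54, 3.53 and 2.93, with RAB27B at 1.88 as a mean over probe sets. FLI1, an ETS factor of megakaryocytes and lymphoid cells, was the opposite case, with 2.80, 3.50 and 3.28 in K562 against 3764, 3391 and 3813 in Jurkat cells. As a mean over probe sets FLI1 lay at -4.28. The platelet adhesion receptor gene SELP differed by -1.13, -1.59 and -1.47, with higher values in Jurkat. The integrin ITGA2B (CD41) was past 2-fold, at 1.80, 1.64 and 1.89, and its partner ITGB3 had -0.29. Platelet granule genes PF4 and PPBP did not exceed 75.2 on any array.

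Granulocyte and monocyte genes were largely dim in both lines: 16 of 23 listed genes were not bright enough to be tested, and the brightest of these reached 88.4 on any array. They include MPO, ELANE, AZU1 and PRTN3, the granule proteins of neutrophil precursors, and SPI1 (PU.1), the main factor of the monocyte lineage, which did not exceed 10.6. Among the 5 tested, LYZ (lysozyme) had signals of 1676, 1974 and 1601 in K562 and 14.8, 30.1 and 1.70 in Jurkat cells, and the Fc receptor FCGR2A 1088, 1317 and 1655 against 19.5, 27.3 and 18.4. CTSG, the neutrophil protease cathepsin G, went the other way, with 73.6, 104 and 16.7 in the myeloid line against 7223, 9041 and 8849 in the T cell line. It was measured by 1 probe set. CEBPE, a granulocyte factor, was also higher in Jurkat, at -2.32, -1.51 and -2.97, and lay at -1.82 on the control arrays with a pseudocount of 68.

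Stem cell and growth factor receptor genes showed no common direction. Of 11 tested of 17 listed, 3 were at least 4-fold higher in K562 and 2 in Jurkat in all 3 pairs, against 5.75% and 7.61% of all genes. The homeobox gene HHEX had signals of 3752, 4215 and 4494 in K562 and 27.0, 109 and 66.4 in Jurkat cells, and the stem cell factor MECOM (EVI1) 1083, 1795 and 1023 against 23.2, 49.4 and 29.3. The leukemia inhibitory factor receptor LIFR differed by 3.42, 2.83 and 3.78. The insulin receptor INSR had 31.2, 6.85 and 13.5 in K562 against 912, 525 and 639 in Jurkat cells, and IGF1R 198, 349 and 278 against 2441, 1788 and 2149.8. The control difference of IGF1R was -3.52, or -1.94 as a mean over probe sets. KIT differed by -1.65, -0.58 and -3.56, a spread that left 1 pair under 2-fold. The erythropoietin receptor EPOR was higher in K562 by 0.94, 0.90 and 1.17.

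K562 cells depend on the BCR-ABL1 kinase, which activates STAT5. Of 17 tested of 19 listed genes of this axis, 10 were at least 2-fold and 5 at least 4-fold higher in control K562 cells, and the median was 1.27. The shares over all genes were 14.8% and 7.03%. PIM1, a kinase induced by STAT5, had signals of 4655, 2742 and 5332 in K562 and 181, 127 and 129 in Jurkat cells. The STAT5 feedback gene SOCS2 had 9831, 9156 and 11725 against 881, 837 and 713, and SOCS3 1014, 976 and 516 against 47.6, 27.4 and 54.3. All 3 were higher in every K562 array than in any Jurkat array, and are among the 5 members picked out by the 4-fold rule in all 3 pairs. However, SOCS3 lay at 1.90 as a mean over its 2 probe sets, of which 1 was not higher in K562 on the control arrays. The second PIM kinase PIM2 and STAT5A had control differences of 2.95 and 2.54, and the feedback gene CISH 1.78. The fusion partners did not move together: ABL1 was higher in K562, by 1.27, 1.13 and 1.30, and BCR higher in Jurkat, with signals of 342, 252 and 277 in K562 against 1005, 873 and 907 and all 3 probe sets in that direction. The probe sets were not assigned to the fused or the unfused part of either gene.

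**Figure D3:**
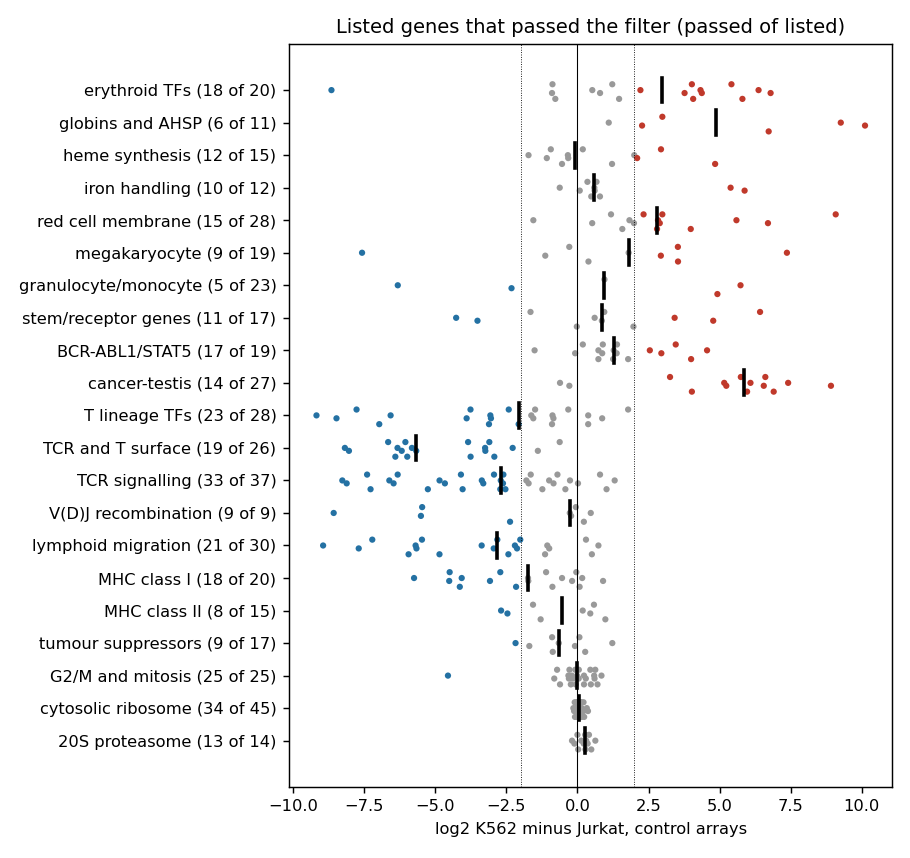
Each row is a gene list, with the number of genes tested of the number listed, and each point is a tested gene at its log2 difference between K562 and Jurkat on the control arrays. Red and blue points are at least 4-fold apart (dotted lines), black bars are the median of the tested genes, and the vertical scatter within a row has no meaning. Globin, erythroid factor, red cell membrane and cancer-testis lists lie mostly to the right, T cell lists to the left, and ribosome and proteasome lists near 0.

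The T cell receptor and its partners had the lowest median among the T cell lists, that is, the furthest towards Jurkat. Of 19 tested of 26 listed surface genes, 17 were at least 4-fold higher in control Jurkat cells, 15 in all 3 pairs and none in K562, with a median of -5.67. CD247, the zeta chain that carries most signalling motifs of the receptor, had signals of 5998, 4232 and 5243 in Jurkat and 3.71, 39.6 and 24.4 in K562 cells. CD3G had 5876, 6843 and 6737 against 56.3, 69.4 and 8.75, and the receptor beta constant gene TRBC1 23877, 22368 and 22868 against 359.7, 353 and 211. No K562 array reached a Jurkat array in these genes, which are among the 15 picked out by the 4-fold rule in all 3 pairs. CD3D was the chain with a clear K562 signal, at 22054, 20694 and 19380 in Jurkat against 1612, 1489 and 956 in K562 cells, and still differed by -3.76 on the control arrays. CD3E was dim for its probe set, at 297, 263 and 278 against 24.3, 51.7 and 39.3, and lay at -1.98 with a pseudocount of 68. The costimulatory receptor CD28 and the adhesion receptor CD2 had control differences of -6.05 and -5.82.

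Among genes known from cortical thymocytes, the CD1 genes and PTCRA were higher in Jurkat. The CD1 family is known for lipid presentation. Its 5 genes had control differences of -6.18 for CD1A, -6.41 for CD1B, -5.67 for CD1C, -6.66 for CD1D and -8.04 for CD1E. The pre-T cell receptor chain PTCRA differed by -2.28, -1.75 and -2.30, and lay at -1.87 with a pseudocount of 68 and at -1.52 as a mean over probe sets. The coreceptor CD4 had 99.0, 40.3 and 73.1 in Jurkat against 58.1, 76.2 and 36.2 in K562 cells, ranges that overlapped, and CD8A was too dim to be tested, with at most 38.5 on any array. CD8B did not pass the filter either. The highest signal of its 4 probe sets was 231 on the Jurkat control array and 31.2 on the K562 control array. Genes of V(D)J recombination were higher in Jurkat for 4 of 9 listed members in all 3 pairs. DNTT, the terminal transferase that adds bases at V(D)J joins, had 22098, 15668 and 21864 in Jurkat against 41.0, 67.5 and 50.9 in K562 cells. RAG1 had 3912, 4599 and 7255 against 69.4, 50.5 and 58.3, and RAG2 758, 1799 and 1523 against 0.560, 4.81 and 1.37. The K562 signals of RAG2 lay below the pseudocount, and its control difference of -5.46 became -3.59 with a pseudocount of 68. Of the general end-joining genes, LIG4 was higher in Jurkat, at -2.37, -2.21 and -2.75, while XRCC4, XRCC5, XRCC6, DCLRE1C and PRKDC differed by between -0.27 and 0.47 on the control arrays. DCLRE1C lay at -0.41 as a mean over its 5 probe sets.

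Signalling proteins near the receptor were higher in Jurkat for 19 of 33 tested of 37 listed genes by the 4-fold rule in all 3 pairs, with none in K562. Beside LCK, ZAP70, the kinase that binds the phosphorylated receptor, had signals of 2027, 1561 and 1956 in Jurkat and 36.2, 49.0 and 11.7 in K562 cells. The scaffold LAT had 3012, 3304 and 3268 against 102, 107 and 63.5, and RASGRP1, which links the receptor to RAS, 8869.6, 5967 and 10894 against 40.2, 26.3 and 35.7. The groups were far apart for all 3, which are among the 19 genes picked out by that rule. The adaptors PAG1, TRAT1 and SH2D1A (SAP), the thymocyte protein THEMIS and the membrane protein MAL had control differences of -7.40, -6.47, -6.32, -6.62 and -8.12. PTPRC (CD45), the phosphatase of all white blood cells, was bright in both lines and higher in Jurkat, at -2.70, -2.60 and -2.45. Some listed components differed less: the adaptor LCP2 (SLP-76) by -0.71, -1.02 and 0.19, BCL10 by 0.02, -0.17 and 0.04 and NFATC2 by -0.43, 0.00 and -0.09. VAV1 and DOCK2 on the same list were higher in Jurkat, by -2.94, -3.79 and -3.46 and by -2.61, -2.94 and -3.23. The adaptor SH2D2A (by 1.31, 1.45 and 1.40) and the activation marker CD69 (by 1.02, 0.30 and 1.62) lay at least 2-fold towards K562 on the control arrays.

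T lineage transcription factors were higher in Jurkat for 11 of 23 tested of 28 listed genes in all 3 pairs, and for none in K562, with a median of -2.07. ETS1 had signals of 16725, 15203 and 17146 in Jurkat and 30.0, 44.6 and 38.2 in K562 cells. BCL11B, which fixes T cell identity, had 6863, 5966 and 6257 against 37.8, 20.3 and 11.4, and the T cell GATA factor GATA3 4573, 4168 and 4813 against 31.2, 60.8 and 51.0. GATA3 in Jurkat and GATA1 with GATA2 in K562 thus separated the lines in opposite directions. TOX, a thymic selection factor, the repressor ZEB1 and the oncogene LMO1 had control differences of -7.77, -3.90 and -3.76, and LMO1 lay at -2.18 with a pseudocount of 68. LEF1, the nuclear partner of beta-catenin, had a clear signal in both, at 21868, 21379 and 22022 against 2512, 1869 and 2352, and differed by -3.11. Notch genes differed less: NOTCH1 by -0.32, -0.45 and -1.26 and NOTCH3 by -1.49, -2.09 and -1.79, and the Notch target HES1 was higher in K562, by 1.78, 0.95 and 1.66, while the target DTX1 was higher in Jurkat, at -3.06, -2.65 and -1.50.

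Migration and adhesion genes of lymphoid cells were higher in Jurkat for 13 of 21 tested of 30 listed genes in all 3 pairs. Beside CXCR4, the integrin alpha chain ITGA4 had signals of 10617, 13620 and 10359 in Jurkat and 34.3, 41.2 and 24.4 in K562 cells. The leukocyte integrin chain ITGB2 (CD18) had 1236, 1002 and 758 against 7.20, 6.90 and 2.49, with every K562 signal under the pseudocount. ITGB1, the beta chain shared by many cell types, had 8653, 12553 and 10594 against 12295, 13750 and 16098, and its ranges overlapped. The actin regulator CORO1A, the GTPase GIMAP6, the laminin receptor chain ITGA6 and the interleukin 7 receptor IL7R had control differences of -5.47, -7.22, -5.94 and -4.85. CCR7, CCR9, CD44 and 5 more were too dim to be tested.

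In antigen presentation the class I heavy chains HLA-B and HLA-C differed by more than 4-fold and beta-2 microglobulin by less than 2-fold. HLA-B, a class I heavy chain, had signals of 1917, 1843 and 2507 in Jurkat and 97.9, 108 and 14.7 in K562 cells, and HLA-C 1944, 2085 and 2017 against 69.9, 162 and 84.9. B2M, their light chain, had 28503, 30100 and 31911 against 24980, 26204 and 24894, a control difference of -0.19. The heavy chain HLA-E differed by -0.54, 0.03 and -1.06, and its ranges overlapped. HLA-F differed by -1.74, -2.64 and -2.56 and HLA-G by -2.16, -1.37 and -1.91, not past 4-fold in every pair. The class I genes share sequence, so the split between them is uncertain. Of 18 tested of 20 listed genes, 8 were at least 4-fold higher in control Jurkat cells, 6 in all 3 pairs, and none in K562. The immunoproteasome subunits PSMB8 and PSMB9 had control differences of -5.75 and -4.14, the peptide trimming enzyme ERAP2 -4.51, and NLRC5, the transactivator of class I genes, -3.08, which was -1.96 with a pseudocount of 68. The third immunoproteasome subunit PSMB10 differed by 0.07 and the transporter TAP2 by -0.04, whereas its partner TAP1 differed by -2.71, -1.73 and -2.90. Among the K562 arrays PSMB8, PSMB9 and TAP1 were highest with hairpin 381, at 228, 359 and 337. Of 15 class II genes 7, among them CIITA, CD74 and HLA-DRA, were not bright enough to be tested. On the control arrays 2 of the 8 tested were at least 4-fold higher in Jurkat, HLA-DOA at -2.69 and the class II promoter factor RFX5 at -2.46. HLA-DOA lay at -1.53 with a pseudocount of 68. In all 3 pairs 4 were at least 2-fold higher in Jurkat and none 4-fold apart. Over all 11785 genes, 1819 were at least 2-fold higher in Jurkat in all 3 pairs, and 7.61% at least 4-fold. With 8 genes tested, none at 4-fold is near that share.

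Cancer-testis antigen genes, normally limited to germ cells, were higher in K562 for 12 of 14 tested of 27 listed genes in all 3 pairs, with a median of 5.85. Of these 12, 10 had a Jurkat control signal under the filter level, and 6 further listed genes, among them MAGEA4 and MAGEA10, were dropped as dim in both lines, so the filter favoured members that differ. MAGEA6 had signals of 20476, 20709 and 17839 in K562 and 25.5, 42.4 and 37.0 in Jurkat cells, and MAGEA12 11413, 11542 and 10405 against 50.3, 59.4 and 48.0. PRAME had a clear signal in both, at 15273, 18198 and 16246 against 1585, 1618 and 1081. MAGEA1, GAGE1, MAGEB2, MAGEC2, SSX1 and MAGEC1 had control differences of 6.90, 5.75, 6.61, 6.55, 6.08 and 5.96. The MAGE and GAGE genes are near-identical families, so a signal may be shared among copies. TTK and PBK, mitotic kinases on the same list, differed by -0.61 and -0.29.

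Housekeeping programmes differed little. All 34 tested ribosomal protein genes and all 13 tested 20S proteasome genes were within 2-fold on the control arrays, with medians of 0.07 and 0.27. Among all genes 14.8% were at least 2-fold higher in K562 and 20.1% in Jurkat on these arrays. Of 25 mitotic genes, 24 were within 2-fold, with the kinase CDK1 at 0.23 and the cyclin CCNB1 at 0.63, or 0.22 as a mean over its 2 probe sets. The exception was UBE2C, the ubiquitin-conjugating enzyme of the anaphase-promoting complex, with signals of 176, 93.7 and 97.2 in K562 against 4513, 5527 and 5403 in Jurkat cells from 1 probe set. Among 9 tested tumour suppressor and repair genes (of 17 listed), RB1 had 1769.7, 1747 and 2640.3 against 8073, 9166 and 9539.8. Its control difference was -2.18, or -1.57 as a mean over probe sets. None of the 9 was 4-fold apart in all 3 pairs. The shares over all genes were 5.75% towards K562 and 7.61% towards Jurkat. With 9 genes tested, none is near these shares. The neighbouring genes CDKN2A, CDKN2B and MTAP were dim on all 6 arrays, with at most 40.8, 38.6 and 71.5.

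Markers of B cells, NK cells and fibroblasts were summed per array, and their part in the results was not tested. Of 6 B cell markers 5 had a probe set of their own, with summed signals of 260 to 415 on the K562 and 491 to 496 on the Jurkat arrays. The B cell factor EBF1 differed by -3.57, -2.46 and -2.26, with 272, 245 and 286 in Jurkat cells, and PAX5 did not exceed 35.8 on any array. The 4 NK cell markers summed to 93.9 to 115 on the K562 and 132 to 200.4 on the Jurkat arrays. The 4 fibroblast genes summed to 634 to 1051 and 194 to 335, and COL1A2, a collagen chain, differed by 3.53, 4.13 and 2.34.

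Ranked over all genes by the smallest of the 3 pair differences, the 12 leading genes on each side mixed lineage genes with others. On the K562 side they were, in order, RHAG, HBE1, MAGEA6, the neuropeptide NMU, the germ cell CTCF relative CTCFL, HBZ, PDE4DIP, the fetal RNA-binding protein LIN28B, the tubulin TUBB6, the calpain CAPN2, ARHGAP6 and NFE4, a fetal globin factor. NMU had signals of 24619, 19357 and 13530 in K562 and 9.67, 7.64 and 24.9 in Jurkat cells, and LIN28B 8965, 9414 and 10578 against 19.0, 22.5 and 4.45. On the Jurkat side they were CXCR4, SATB1, LCK, the chitinase-like CHI3L2, the progenitor factor SOX4, BEX3, CD1E, ETS1, the phosphatase PTPRK, TPD52, the growth factor PDGFC and ITGA4. CHI3L2 had 22068, 16938 and 11901 in Jurkat against 58.8, 33.1 and 19.2 in K562 cells, and SOX4 17730, 16425 and 17509 against 26.9, 20.8 and 47.0 with all 5 probe sets in that direction. The ranking used all 6 arrays, so no test of these 24 genes is given.

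**Figure D4:**
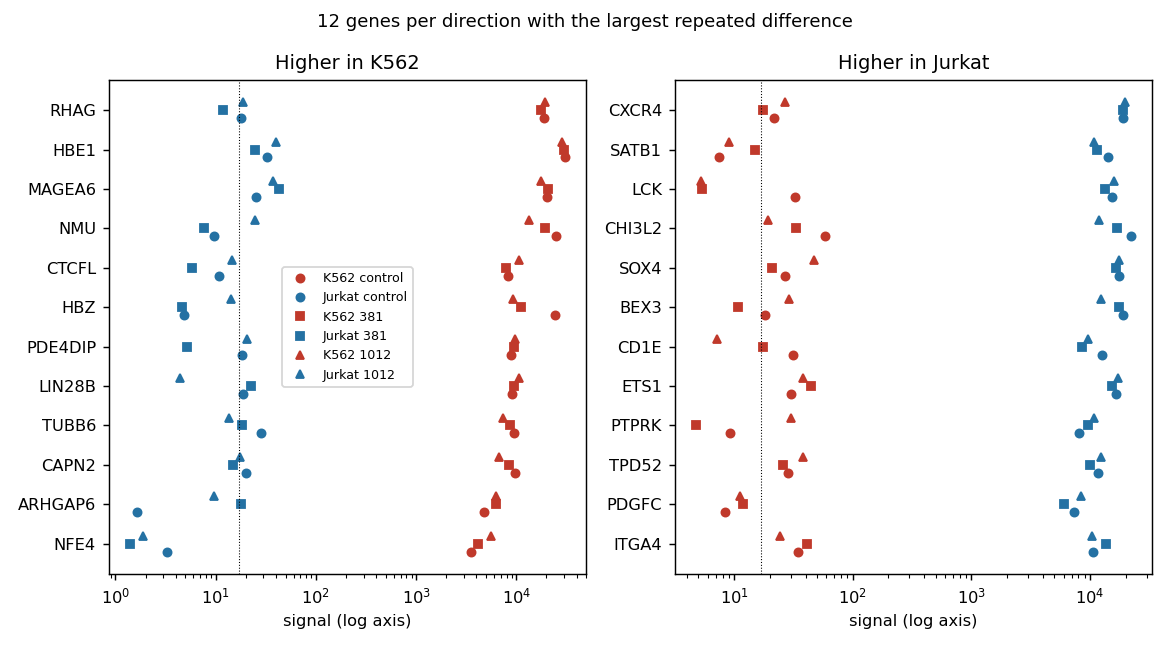
Signals on the 6 arrays (log axis) of the 12 genes per direction with the largest value of the smallest pair difference. Red marks are K562 and blue marks Jurkat arrays, with circles for control, squares for hairpin 381 and triangles for hairpin 1012. The dotted line is the pseudocount of 17. All 3 arrays of the higher line lie above all 3 of the lower line, which follows from the choice of these genes.

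Few large control differences failed to repeat. At least 4-fold on the control arrays but under 2-fold in both hairpin pairs were 7 genes higher in K562 and 4 higher in Jurkat. The 5 with the largest difference towards K562 were SRPK3 (2.44, 0.96 and 0.62), TNFRSF14-AS1 (2.44, 0.39 and 0.26), MUC3A (2.35, 0.63 and -0.81), ALDH3B1 (2.20, 0.56 and 0.42) and SLC25A37. Apart from SLC25A37 these were dim, with control K562 signals of 154, 153, 156 and 121 and Jurkat signals under 17.1. Towards Jurkat they were MDFI (-2.40, -0.90 and -0.20), KLHL35 (-2.39, -0.87 and -0.57), TMEM102 (-2.36, -0.19 and -0.22) and ZNF76 (-2.18, -0.90 and 0.49), with control Jurkat signals between 113 and 218. With a pseudocount of 68 all but SLC25A37 were under 4-fold on the control arrays.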

How the data were processed

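RNA of 6 samples was measured on 1 Affymetrix expression array each, and RNA from 3 replicates was pooled per array, per the labels. The deposited values are linear signal intensities. Per the submitters' processing notes, the tool was MAS5. Its version is not given in the sources used here. Of 54675 probe sets, 41097 carried 1 gene symbol, 1801 several and 11777 none in the platform annotation, and genes were named only from the first kind. Signals were used without further normalization as log2(signal + 17). Probe sets whose mean log2 value was above the median were kept (27306, of which 22311 had 1 symbol), and the brightest kept probe set stood for its gene, giving 11785 genes.

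With 1 array per line, control differences were called by size, at 4-fold and 2-fold. The 4 silenced arrays, 2 per line, were fitted with limma 3.58.1 in R 4.3.3 (two-sided, intensity trend, Benjamini-Hochberg over all genes), which left 2 residual degrees of freedom. The error behind these p-values comes from arrays that differ in hairpin, since no label names separate cultures. Arms with the same hairpin name shared a pair. The 381 minus 1012 differences of the lines correlated across genes with r = 0.215, but nothing in the labels says that hairpin arms shared a batch, so the fit has no block.

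The members and gene lists were chosen with earlier results of these data known. Named by rule were the 6 markers, the 12 genes per direction ranked highest by the smallest of their 3 pair differences, list members past 4-fold in all 3 pairs (at most 8 per direction) and those at least 2-fold against their list, and up to 5 genes per direction that did not repeat. One list member that the rule names is not reported here. Other list members were named after their values were seen. Alternatives were other pseudocounts (4.25 and 68), other filters, the mean of probe sets, quantile and cyclic loess normalization, left-out arrays, a hairpin block and no trend. Genes without a symbol of their own in the annotation were not analysed here.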

Additional observations from a re-analysis of the deposited data

How the results depend on the processing

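With the filter on dim probe sets at the 75th percentile fewer genes were tested, and the counts at least 4-fold higher on the control arrays were 268 in K562 and 416 in Jurkat. In all 3 pairs they were 223 and 319, and by limma on the silenced arrays 1690 and 1890. Under the other alternatives these counts stayed within 1.5 times. Leaving out a hairpin pair gave 720 to 725 genes higher in K562 and 962 to 983 in Jurkat, and leaving out a silenced array gave 2070 to 2376 and 2476 to 2919 by limma. With hairpin as a replicate block limma called 3070 and 3545 genes, and on all 6 arrays with the arm as a replicate block 3558 and 4059. No control difference of at least 4-fold of a named gene reversed. Smaller differences were not counted in this way, and some changed sign. DCLRE1C, for example, went from 0.22 to -0.41 as a mean over probe sets. The median control difference was -0.00333 with quantile and -0.04 with cyclic loess normalization, against -0.04 without, and 0.06 with no filter on dim probe sets. Folds of genes dim in 1 line are limited by the pseudocount, and 1 pooled array per line gives the control difference no error of its own.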

Other observations

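Neighbouring genes on a chromosome were at times apart in the same direction. Among 11747 tested genes placed in RefSeq order, runs of at least 4 consecutive tested genes, all at least 4-fold apart in all 3 pairs in 1 direction, were listed, and their genes were chosen by their values. On chromosome 11 the K562-higher run held HBB, HBD, HBBP1, BGLT3, HBE1, OR51B4 and OR51B5, with control differences between 2.98 and 9.26 in size. On chromosome 1 a Jurkat-higher run held KIRREL1, the CD1 genes and IFI16, and a K562-higher run IL23R, GADD45A, GNG12, DIRAS3 and DEPDC1. On chromosome 7 the Jurkat-higher run held GIMAP7, GIMAP4, GIMAP6, GIMAP2 and GIMAP1, between 4.60 and 8.34 in size, and the K562-higher run VWDE, SCIN, ETV1 and SOSTDC1. The others were MAP9, GUCY1A1, GUCY1B1, PDGFC and GLRB on chromosome 4 and STAMBPL1, FAS, LIPA and IFIT2 on chromosome 10, both higher in Jurkat. No test was made of the number of runs.

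The median control difference also varied by chromosome. It was -0.71 over 210 genes of chromosome 13 and -0.45 over 388 genes of chromosome 14, against -0.04 over all genes. On chromosome X 12.8% of genes were at least 4-fold higher in K562 in all 3 pairs, against 5.75% over all genes. The cancer-testis genes described above were not taken out of this share. The share higher in Jurkat was 13.8% on chromosome 4, 12.4% on chromosome 13, 12.05% on chromosome 18, 11.6% on chromosome 21 and 10.3% on chromosome X, against 7.61% over all genes.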
